A study of Mus musculus with 6 samples.

Results

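The cytoskeletal genes on these arrays were taken as the probes with a single annotated symbol for an actin, an actin-related or Arp2/3 protein, a filament-capping or severing protein, a tropomyosin, a myosin chain, an actinin, talin, tensin or vinculin, a tubulin or gamma tubulin complex protein, or a keratin. The symbols alone chose them, and 75 of 9663 probes with a single symbol matched, for 48 of 7151 genes. They comprised 55 probes for 34 genes of the actin system, 11 probes for 9 microtubule genes and 9 probes for 5 keratins. No talin, profilin or skeletal muscle actin probe was among them. Some symbols matched for other reasons. Actr6 and Actr8 encode nuclear actin-related proteins of chromatin remodelling complexes, Actr1a encodes a dynactin subunit, and Tubb2a-ps2 is a tubulin pseudogene. A further 8 spots carried a matching symbol beside another gene's and were not used.

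Liver RNA of 1 male mouse per group was measured on an array A and an array B, which hold different spots. One mouse was calorie-restricted, meaning that its food intake was reduced, and was killed at 177 days. Another was fed ad libitum, without a limit on intake, and was killed at 174 days. The youngest was fed ad libitum and killed at 17 days, an age unit that rests on its label alone. The labels assign the 177-day and 174-day mice to the 2nd age group and the 17-day mouse to the 1st. Beside values the 3 mice are written CR, 174 d and 17 d. No genotype, strain or duration of the restricted diet was given in the sources used here.

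Each group held 1 mouse, so no test, p-value or error between animals can be given, and every difference describes these 3 livers. The 2 arrays of a mouse carry different spots of the same liver and are not replicates. Median spot intensity, in arbitrary units, was 375 and 333 on arrays A and B of the calorie-restricted mouse, 35.8 and 60.8 in the ad libitum mouse of 174 days, and 364 and 403 in the mouse of 17 days. Intensities were therefore quantile-normalized on the log2 scale. A probe was kept for the gene values where its mean level was above the median of its array kind, and each gene was given the median over its kept probes of the difference between mice. Of the cytoskeletal probes, 44 passed this brightness filter, for 32 genes, and these 32 genes are the base of the counts below unless all 48 are named. As a technical yardstick, different probes of the same gene spread by an SD of 0.45 log2 in the age comparison, 0.58 in the diet comparison and 0.40 between the calorie-restricted and the 17-day mouse, over 1216 probes of 557 genes. Of 12 hepatocyte markers, 5 had a probe. The Alb spot, for albumin, read 29199 in the calorie-restricted mouse, 3089 at 174 days and 25108 at 17 days, so that it was far above the array median in every liver.

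Actin filaments form from globular monomers. The Arp2/3 complex starts branches on existing filaments, capping protein stops growth at the fast-growing end, cofilin severs filaments, and myosin II with tropomyosin gives them contractility. Microtubules are hollow polymers of alpha and beta tubulin that are nucleated by gamma tubulin ring complexes. In hepatocytes actin surrounds the bile canaliculi, microtubules carry secretory vesicles, and the intermediate filaments consist of keratins 8 and 18, which assemble as obligate pairs. Bile duct cells add keratins 7 and 19.

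Promoter sequences were available for 37 of the 48 genes, as 40 windows of 300 bases from 250 before to 50 after the transcription start, from RefSeq on the mouse build GRCm38.p6. Many actin and vinculin genes are textbook targets of serum response factor, which binds the CArG box, and 5 of the 40 windows held a CArG box on either strand, against 1.63% of all 32851 promoter windows. These belonged to Actg1, Vcl, Myl9, Myl6 and Arpc4. The GC box GGGCGG, searched on both strands, was present in 27 of the 40 windows and in 35.7% of all windows. Windows of Actg1 and Vcl are shown because both hold a CArG box while the values of these genes lay on opposite sides of 0 in the diet comparison. Those of Krt8 and Krt18 are shown because these neighbours on chromosome 15 encode the keratin pair of hepatocytes and had the same direction on every probe in the diet comparison. Capitals mark the CArG box (CCATATATGG in Actg1, CCTTATAAGG in Vcl) and the GC boxes, which overlap in places, and neither motif was found in the Krt8 and Krt18 windows. The Actg1 window is chr11:120348446-120348745 on the minus strand, that of Vcl chr14:20929148-20929447 on the plus strand, that of Krt8 chr15:102004293-102004592 on the minus strand and that of Krt18 chr15:102027966-102028265 on the plus strand.
Actg1: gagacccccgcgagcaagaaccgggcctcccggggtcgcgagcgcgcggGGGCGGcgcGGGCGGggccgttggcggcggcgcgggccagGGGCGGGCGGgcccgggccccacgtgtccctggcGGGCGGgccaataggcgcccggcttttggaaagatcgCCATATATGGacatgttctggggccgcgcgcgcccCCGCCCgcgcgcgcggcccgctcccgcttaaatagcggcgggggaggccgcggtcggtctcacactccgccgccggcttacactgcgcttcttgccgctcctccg
Vcl: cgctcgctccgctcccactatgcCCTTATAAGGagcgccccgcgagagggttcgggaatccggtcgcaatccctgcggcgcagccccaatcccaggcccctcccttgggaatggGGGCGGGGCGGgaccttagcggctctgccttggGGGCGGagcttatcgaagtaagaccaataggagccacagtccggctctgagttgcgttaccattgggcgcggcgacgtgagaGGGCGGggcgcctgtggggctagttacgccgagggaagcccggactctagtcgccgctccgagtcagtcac
Krt8: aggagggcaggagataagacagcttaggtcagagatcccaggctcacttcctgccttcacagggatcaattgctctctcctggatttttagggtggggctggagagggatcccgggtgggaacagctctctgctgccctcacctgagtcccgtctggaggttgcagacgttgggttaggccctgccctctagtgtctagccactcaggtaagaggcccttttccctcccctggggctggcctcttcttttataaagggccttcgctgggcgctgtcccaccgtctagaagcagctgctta
Krt18: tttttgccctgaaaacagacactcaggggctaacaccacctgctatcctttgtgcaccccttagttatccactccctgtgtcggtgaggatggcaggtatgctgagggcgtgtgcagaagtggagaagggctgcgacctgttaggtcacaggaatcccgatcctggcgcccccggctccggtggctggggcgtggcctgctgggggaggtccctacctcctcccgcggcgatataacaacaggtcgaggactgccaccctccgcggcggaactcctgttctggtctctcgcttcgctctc

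The question of the first comparison is how the cytoskeletal genes differed with diet, and it subtracts the ad libitum mouse of 174 days from the calorie-restricted one of 177 days. Lowest in the calorie-restricted liver were the tensin gene Tns3, on 1 odd spot, the tubulin Tubb3 (-1.26 log2), the capping protein chain Capzb (-1.07), the Arp3 gene Actr3 (-0.77), Krt8 and Actg1 (both -0.61). Highest were the tensin genes Tns2 (1.07) and Tns4 (0.81), the myosin heavy chain Myh9 (0.97), Tpm3 (0.80) and Myl12b (0.60). These are the genes beyond the spread of 0.58 between probes, and the other genes lay within it. Without spots odd in the 174-day mouse alone the spread was 0.50. Tpm1 (-0.58), Arpc5l (-0.56), Arpc1a and Krt18 (both -0.54) lay beyond that smaller spread too. Among the 32 genes, 19 were below 0 (59.4%) and 13 above, where 52.7% of all 3865 genes were below 0. The median was -0.23 log2 for the cytoskeletal genes and -0.04 for all genes. At least 2-fold higher was 1 gene, Tns2, against a background of 2.25% of all genes, and at least 2-fold lower were 3, Tns3, Tubb3 and Capzb, against a background of 4.61%. Tns3 passed the filter only through its odd 174-day value. Without spots odd in the 174-day mouse alone, 2 of 31 genes were at least 2-fold lower, against 161 of all 3850. The 5 genes beyond the spread on the higher side are 15.6% of the 32. The 6 on the lower side, Tns3 among them, are 18.8%. Of all genes 11.6% and 17.3% lay beyond the spread. These shares are near the background.

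The diet median depended on a correction for the place of the spots in the deposited order. The layout of the arrays is not given in the sources used here, so the place in that order stands in for the position on the array. The list of spots was divided into 16 equal runs, a length inferred and not stated by a source, and a position correction subtracted the median deviation of every run and of every rank inside the runs. This brought the diet median of the cytoskeletal genes to 0.0082, with 15 of the 32 below 0, against 0.0045 and 49.4% for all genes. It also narrowed the values of all genes, whose quartiles went from -0.42 and 0.31 to -0.26 and 0.25. Whether the place of a spot itself matters was not tested. With each array only centred on its median, the cytoskeletal median was -0.57 and that of all genes -0.31. For genes above the filter, the corrected diet value is given beside most of them below, and wherever it lies on the other side of 0. For single probes, dim probes and the other comparisons it is mostly not given. Such values need not keep their side of 0.

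**Figure D1:**
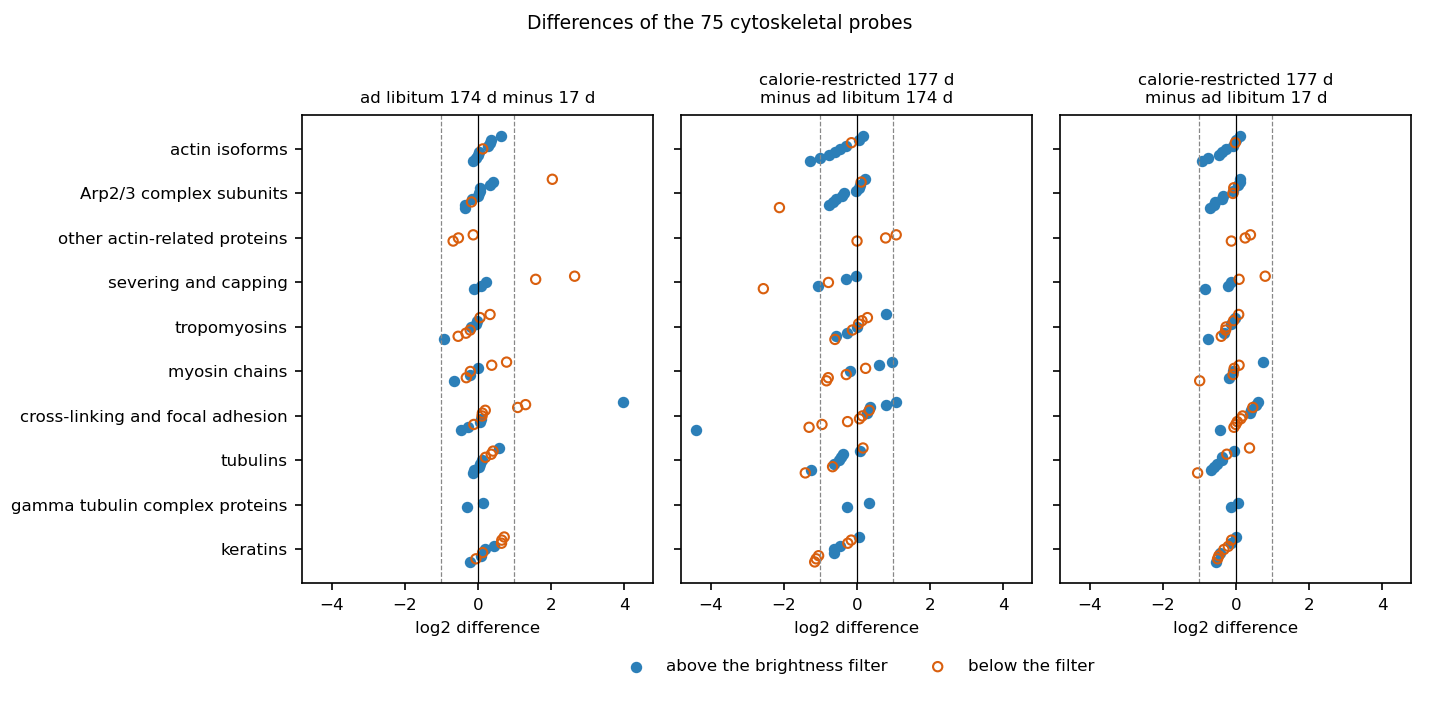
Differences of all 75 cytoskeletal probes between the mice on the log2 scale (horizontal axis), with a row for each role and filled points for the 44 probes above the brightness filter. Dashed lines mark 2-fold. In the diet panel 8 of 9 keratin probes lie below 0, and the single probes far out in the age and diet panels are those of Tns3, Capza2 and Arpc2 in the mouse of 174 days.

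Beta actin, encoded by Actb a main actin of non-muscle cells, was read by 7 probes, all on array A and all above the filter. The brightest Actb spot read 5014 in the calorie-restricted mouse, 1391 in the ad libitum mouse of 174 days and 9263 in that of 17 days. On the normalized log2 scale these levels were 11.64, 12.09 and 12.09, so the calorie-restricted liver was lowest. This order did not hold after the position correction, where the diet difference of this spot was 0.07. Across the 7 probes the diet difference ran from -1.28 to 0.16, with 5 probes below 0 and 2 above, and the median was -0.45. Probes of the same gene thus disagreed by more than the median itself. After the position correction the Actb median was -0.10. Gamma actin, from Actg1, read 512 (CR), 163 (174 d) and 768 (17 d) on its single array B spot, a diet difference of -0.61 log2 and of -0.42 after the correction. The coding sequences of cytoplasmic actins are nearly alike, so a spot named for one may also bind RNA of the other. Acta2, the smooth muscle actin that activated stellate cells make, had 1 probe below the filter at -0.15.

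The Arp2/3 complex was represented by 7 of its genes, of which 6 passed the filter. Their diet median was -0.34, with 4 genes below 0 and 2 above. Actr3, which encodes the Arp3 subunit, was lowest at -0.77. Its spot read 384 in the calorie-restricted mouse, 63.7 at 174 days and 470.4 at 17 days, and after the position correction the difference was -0.29. The Arpc1a probes, a subunit in contact with the activator of the complex, were both below 0, with -0.42 for the array A spot and -0.66 for the array B spot. Arpc5l was at -0.56, but at -0.04 after the correction. Arpc5 (-0.13) and Arpc4 (0.01) lay near 0, and were at 0.17 and 0.25 after the correction. Arpc2, a subunit that touches the mother filament, was highest at 0.22 on a spot of 563 (CR), 46.1 (174 d) and 516 (17 d). A dimmer Arpc2 spot read 75.9 (CR), 31.4 (174 d) and 78.7 (17 d) and gave -2.12, so the 2 spots of Arpc2 did not share a direction. After the correction Arpc2 was at 0.01 and Arpc4 was the highest of the 6, so the order did not hold.

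Capping protein is a dimer of an alpha and a beta chain. Capzb, the beta chain, read 407 in the calorie-restricted mouse, 174 in the ad libitum mouse of 174 days and 881 in the mouse of 17 days. This gave a diet difference of -1.07 log2, about the threshold of 2-fold, and -0.75 after the position correction. The alpha chain Capza2 was at -0.29 on a bright array B spot of 2394 (CR), 1003 (174 d) and 4377 (17 d). A dim array A spot of Capza2, at 67.6 (CR), 38.0 (174 d) and 57.3 (17 d), gave -2.56 and stood apart in the 174-day mouse only, with its 17-day reading under the floor set at the 5th percentile of the array. Cofilin, from Cfl1, was at -0.02, with 532 (CR), 109 (174 d) and 734 (17 d), and at 0.01 after the correction. Capg, a capping protein of the gelsolin family known from macrophages, had only a dim probe at -0.78. A 2-fold difference in this group thus rested on Capzb among the spots above the filter.

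Tropomyosins, which wrap along filaments, did not share a direction. Tpm1 was at -0.58 on its array B spot of 542 in the calorie-restricted mouse, 170 at 174 days and 1128 at 17 days, while 2 dimmer Tpm1 probes were at 0.14 and 0.29. Tpm3 was at 0.80 on a spot of 1333 (CR), 77.3 (174 d) and 1301 (17 d), which was low in the 174-day mouse only, while its dimmer probes were at -0.60 and -0.12. Tpm2 (-0.27) and Tpm4 (0.00) lay between them. After the correction the kept probes were at -0.64 for Tpm1, 0.78 for Tpm3, -0.39 for Tpm2 and 0.10 for Tpm4.

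Non-muscle myosin II supplies contractile force in hepatocytes. Myh9, its A-type heavy chain, read 1107 in the calorie-restricted mouse, 55.2 in the ad libitum mouse of 174 days and 629 in the mouse of 17 days. The calorie-restricted value was highest after normalization, with a diet difference of 0.97 log2, but 0.38 after the position correction. The regulatory light chain gene Myl12b was at 0.60 on its brighter spot and at -0.29 on a dimmer one, and the brighter one was at 0.16 after the correction. Myl9, another regulatory light chain gene known best from smooth muscle, was lowest of the 3 above the filter at -0.18, and at 0.14 after the correction, with spot readings of 410.4 (CR), 89.7 (174 d) and 572 (17 d). Myh10, the B-type heavy chain, had 2 dim probes at 0.24 and -0.83. Myl6, the essential light chain, had a dim probe at -0.78, from 202 (CR), 63.3 (174 d) and 482 (17 d), and at -0.99 for the calorie-restricted against the 17-day mouse.

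Of 8 focal adhesion and cross-linking genes 5 passed the filter, 4 of them above 0, with a median of 0.37. Over all 8 without the filter, 3 were below 0 and the median was 0.22. The dim actinin genes Actn1 (-0.95, with probes at -1.31, -0.95 and 0.34) and Actn2 (-0.25) were on the lower side, and Actn4 was at 0.15. Tns2 encodes a tensin, a class of proteins that link integrins to actin. It read 714 in the calorie-restricted mouse, 32.8 in the ad libitum mouse of 174 days and 457 in the mouse of 17 days. The 174-day value was lowest after normalization and the calorie-restricted one highest, which gave a diet difference of 1.07 and of 1.03 after the position correction. Tns4, a tensin that lacks the actin-binding part, was at 0.81 on a bright array B spot of 3806 (CR), 757 (174 d) and 4261 (17 d), and at 0.91 after the correction, but at -0.12 with median centring. Vcl, which encodes vinculin, the protein that couples talin to actin, was at 0.37, from 1577 (CR), 132 (174 d) and 1103 (17 d), and at 0.35 after the correction. Actn3, known as an actinin of fast muscle fibres, was at 0.29 and at 0.08 after the correction.

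Tns3 was the exception at -4.41 and rested on 1 spot. It read 180 in the calorie-restricted mouse, 470.1 in the ad libitum mouse of 174 days and 233 in the mouse of 17 days, although the 174-day array was by far the dimmest. The spot stood apart in that mouse only, and it passed the brightness filter through that value. The other Tns3 spot, dim and on array B, was at 0.07. Without the 174-day spot, Tns3 had no probe above the filter.

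**Figure D2:**
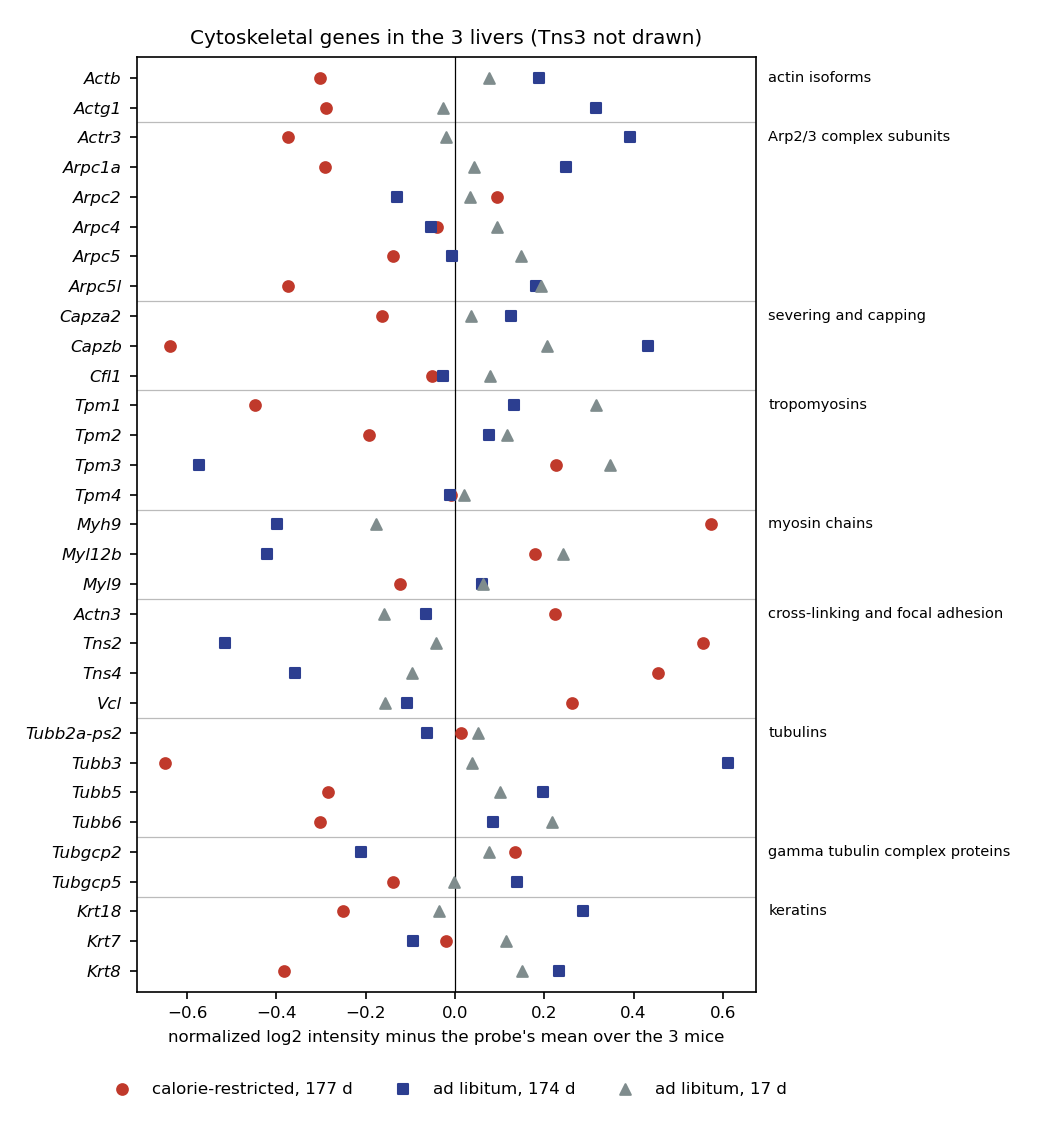
Level of 31 cytoskeletal genes in each liver, as normalized log2 intensity minus the mean of the same probe over the 3 mice (horizontal axis), 1 point per mouse and gene. Circles of the calorie-restricted mouse lie to the left for actins, capping protein, most tubulins, Krt8 and Krt18, and to the right for Myh9 and for Actn3, Tns2, Tns4 and Vcl. Tns3, at -1.62, 2.79 and -1.18 in the calorie-restricted, 174-day and 17-day mice, is not drawn.

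Tubulins with a probe above the filter were below 0 in 3 of 4 cases. Tubb5, a beta tubulin of most cell types, had 3 such probes, on both array kinds. The brightest Tubb5 spot read 2444 in the calorie-restricted mouse, 441 in the ad libitum mouse of 174 days and 2995 in the mouse of 17 days. The 3 diet differences of Tubb5 were -0.63, -0.48 and -0.44, so they differed by less than the spread between probes of a gene. After the position correction they were 0.00, -0.50 and -0.13. Tubb3, best known from neurons, read 878 (CR), 244 (174 d) and 1269 (17 d) and was at -1.26, the lowest of the tubulins, and at -1.72 after the correction. Tubb6 was at -0.39, from 649 (CR), 85.7 (174 d) and 863 (17 d), and at -0.03 after the correction. The pseudogene Tubb2a-ps2 was at 0.08, from 618 (CR), 57.2 (174 d) and 602 (17 d). Beta tubulin genes are close in coding sequence, so these spots may share RNA species. Of the dim probes, Tubb2b was at -1.41, the alpha tubulin Tuba1b at -0.66 and the gamma tubulin Tubg1 at 0.17. Of the ring complex genes, Tubgcp2 was at 0.34, from 2518 (CR), 671 (174 d) and 3834 (17 d), and Tubgcp5 at -0.28, from 3063 (CR), 1342 (174 d) and 5441 (17 d). They lay on opposite sides of 0, and after the correction they were at 0.21 and 0.27.

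Keratins 8 and 18 were lower in the calorie-restricted liver on each of their 6 probes. The brightest Krt8 spot read 2799.6 in the calorie-restricted mouse, 619 in the ad libitum mouse of 174 days and 4133 in the mouse of 17 days. Its diet difference was -0.61, and the 2 dimmer Krt8 probes were at -1.04 and -1.15. For Krt18 the brightest spot, on array B, read 1357 (CR), 579.8 (174 d) and 2399 (17 d), a difference of -0.62. Its array A probes were at -0.45 above the filter and -1.11 below it. Normalized levels of the 6 probes were lowest in the calorie-restricted and highest in the 174-day mouse, with the 17-day mouse between them or, for an array A probe of Krt18, level with the calorie-restricted one. After the position correction all 6 were still below 0, from -0.16 to -1.19. Krt8, Krt18 and Tubb5 were 3 of the 7 cytoskeletal genes with at least 3 named probes, and all their probes were lower, which 12% of all such genes on the arrays met. Under the correction Tubb5 no longer met this. None of the 7 had all its probes higher, against 7.58% of all such genes. The stricter condition that at least 2 kept probes all lay 0.5 log2 or more to one side was met by 0 of 6 cytoskeletal genes, against 11.8% of all genes with as many probes.

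The bile duct keratins had values near 0. Krt7 was at 0.07, with 431 in the calorie-restricted mouse, 38.4 at 174 days and 449 at 17 days, and the dim Krt19 probe was at -0.15. Of 8 bile duct markers 4 had a probe, these keratins among them, and the other 2 were Epcam (-0.72) and Cldn4 (-0.20). The summed level of the bile duct markers, each spot divided by its array median, was 7.22 in the calorie-restricted mouse, 11.4 in the ad libitum mouse of 174 days and 7.56 in the mouse of 17 days. For the 5 probes of hepatocyte markers it was 114 (CR), 156 (174 d) and 117 (17 d). For stellate cell or fibroblast markers it was 26.2 (CR), 37.9 (174 d) and 32.0 (17 d), over 11 probes, and for the 2 smooth muscle probes 3.86 (CR), 4.06 (174 d) and 4.33 (17 d). Sums of the endothelial, Kupffer cell, leukocyte, erythroid and squamous epithelium markers were also highest at 174 days. That of the 1 striated muscle probe was highest at 17 days. On the quantile-normalized scale the directions were not the same: the median diet difference of the 4 hepatocyte markers above the filter was 0.12, with Alb at 1.18, that of the 5 stellate markers 0.15 and that of the 3 bile duct markers -0.20. The part of cell composition in the keratin values was not tested. In RNA of whole liver, fewer cells of a type and less RNA per cell cannot be told apart. The epidermal keratin Krt10 had a dim probe of 33.7 (CR), 8.29 (174 d) and 50.9 (17 d), below the 5th percentile of its array in the calorie-restricted mouse.

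**Figure D3:**
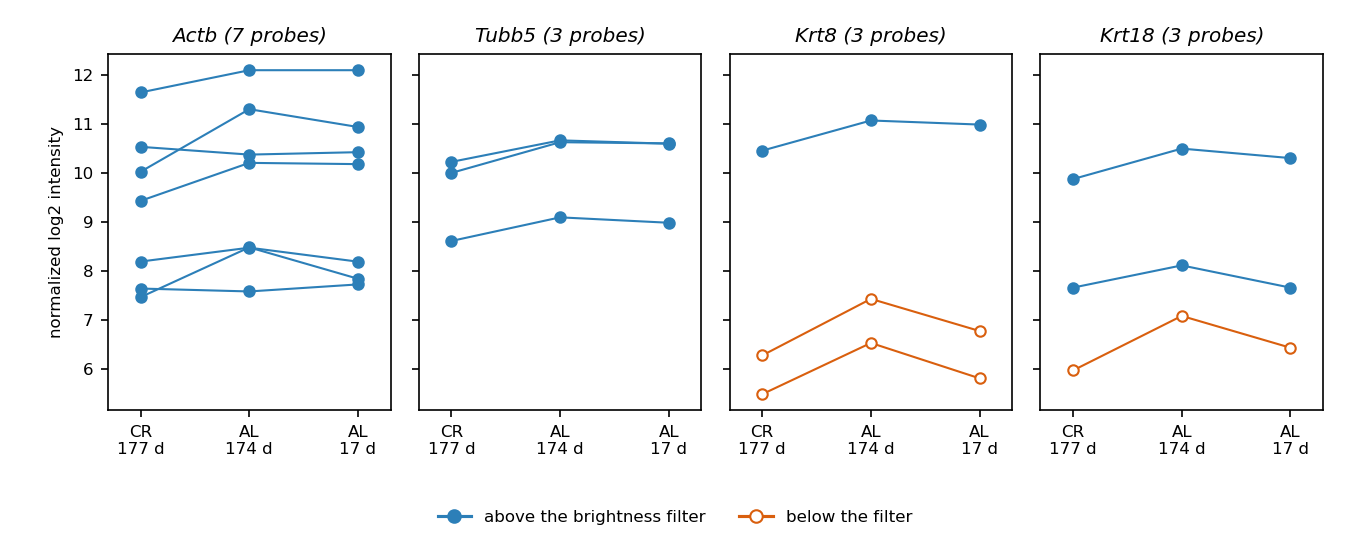
Normalized log2 intensity (vertical axis) of every probe of Actb, Tubb5, Krt8 and Krt18 in the calorie-restricted 177-day, ad libitum 174-day and ad libitum 17-day mice, with a line for each probe. The lines of Tubb5, Krt8 and Krt18 all step up between the first and the second mouse, while 2 of the 7 lines of Actb do not.

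The question of the second comparison is how these genes differed with age under ad libitum feeding, at 174 days relative to 17 days. It shares the 174-day arrays with the diet comparison, so the values of both move together. The median of the 32 genes was -0.02, against -0.03 for all genes, with 18 below 0 (56.2%) and 14 above, where 53.5% of all genes were below 0. Only Tns3 was at least 2-fold higher, at 3.97 on the spot described above, against a background of 0.724%, and no gene was at least 2-fold lower, against 0.44%. Without spots apart in the 174-day mouse only, 0 of 31 genes were at least 2-fold higher, against 12 of all 3850. Beyond the spread between probes lay Tns3 and Tubb3 (0.57) on the higher side and Tpm3 (-0.92), Myl12b (-0.66) and Tns2 (-0.47) on the lower side, against 7.81% and 9.44% of all genes. Without the spots apart in the 174-day mouse only, the spread was 0.34, and Actr3 (0.41) and, barely, Actg1 (0.342) lay beyond it too. After the position correction 18 genes were again below 0, against 54.3% of all genes. Tubb3 was then at 0.66, Tpm3 at -0.89 and Tns2 at -0.57, while Myl12b was at -0.06.

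By role, the age medians lay between -0.22 for myosin chains and 0.18 for actin isoforms. Actb was at 0.03, with its 7 probes from -0.14 to 0.64, and Actg1 at 0.34. Tubb5 was at 0.07, with its probes at 0.03, 0.07 and 0.11. Krt8 was at 0.08 on its bright probe and at 0.72 and 0.66 on the dim ones, and the Krt18 probes were at 0.19, 0.45 and 0.65. The probes of Krt8 and Krt18 were thus higher in the 174-day mouse in all 6 cases. The genes with all of at least 3 probes higher were Krt8, Krt18, Tubb5 and Actn1, 4 of 7, where 11.8% of all such genes were. After the position correction Tubb5 no longer met this, and its median was -0.04. One of the Actn1 spots was under the floor in the calorie-restricted and the 17-day mouse. Tpm1 was the 1 gene with all 3 probes lower, against 9.05%, although its kept probe was at 0.21 after the position correction. None of 6 genes had at least 2 kept probes all 0.5 log2 or more to one side, against 1.62% of all. The dim probes of the 174-day mouse read as low as 7.63, at the dim end of that array, and their part in these values was not tested. The kept probes of all 4 tropomyosins were below 0, from -0.03 for Tpm4 to -0.92 for Tpm3. The dimmer Tpm3 probes were at 0.33 and 0.06, so the value of Tpm3 rests on 1 of its 3 probes.

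The third comparison, the calorie-restricted mouse relative to the 17-day mouse, joins diet and age, and takes no difference from the dim arrays of the 174-day mouse. Those arrays still entered the normalization and the brightness filter, which Tns3 passed only through its 174-day value. It shares the calorie-restricted arrays with the diet comparison and the 17-day arrays with the age comparison, so its values are not independent of either. No cytoskeletal gene was 2-fold apart in either direction, against a background of 0.466% higher and 1.11% lower. The median was -0.19, against -0.09 for all genes, and 25 of 32 genes were below 0 (78.1%), where 58.8% of all genes were. After the position correction the median was -0.041 and 19 genes were below 0 (59.4%), against 53.3% of all genes. Beyond the spread between probes lay 4 genes on the higher and 7 on the lower side, against 12.7% and 21.4% of all genes. Tns3 (-0.44) is among these 7.

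The 7 genes above 0 were Myh9 (0.75), Tns2 (0.60), Tns4 (0.55), Vcl (0.42), Actn3 (0.38), Arpc2 (0.06) and Tubgcp2 (0.06). The calorie-restricted mouse had the highest value of the 3 mice for these same genes, 21.9% of the 32, and 34.4% of all genes did so. It had the lowest value for 19 genes (59.4%), against 45.9% of all genes. The 174-day mouse was lowest for 11 genes (36.4% of all genes) and highest for 12 (35.4%), and the 17-day mouse lowest for 2 (17.7%) and highest for 13 (30.2%). At the low end were Capzb (-0.84), Tpm1 (-0.77), Tubb3 (-0.69), Arpc5l (-0.57), Krt8 (-0.53) and Tubb6 (-0.52). Tubb3 was at -1.06 after the correction, Capzb and Tpm1 at -0.43, and Arpc5l at -0.03. All 4 tubulins with a probe above the filter were below 0, from -0.04 to -0.69, and so were all 4 tropomyosins. After the correction Tpm4 was on the other side of 0, at 0.02. The 3 Krt8 probes ran from -0.32 to -0.53 and the 3 Krt18 probes from -0.46 to 0.00. Krt8, Tpm3 and Tubb5 were the genes with all of at least 3 probes lower, 3 of 7 against 9.05% of all such genes, and none had all higher, against 6.95%. At least 2 kept probes 0.5 log2 or more to one side were found for 0 of 6 genes, against 3.95%.

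**Figure D4:**
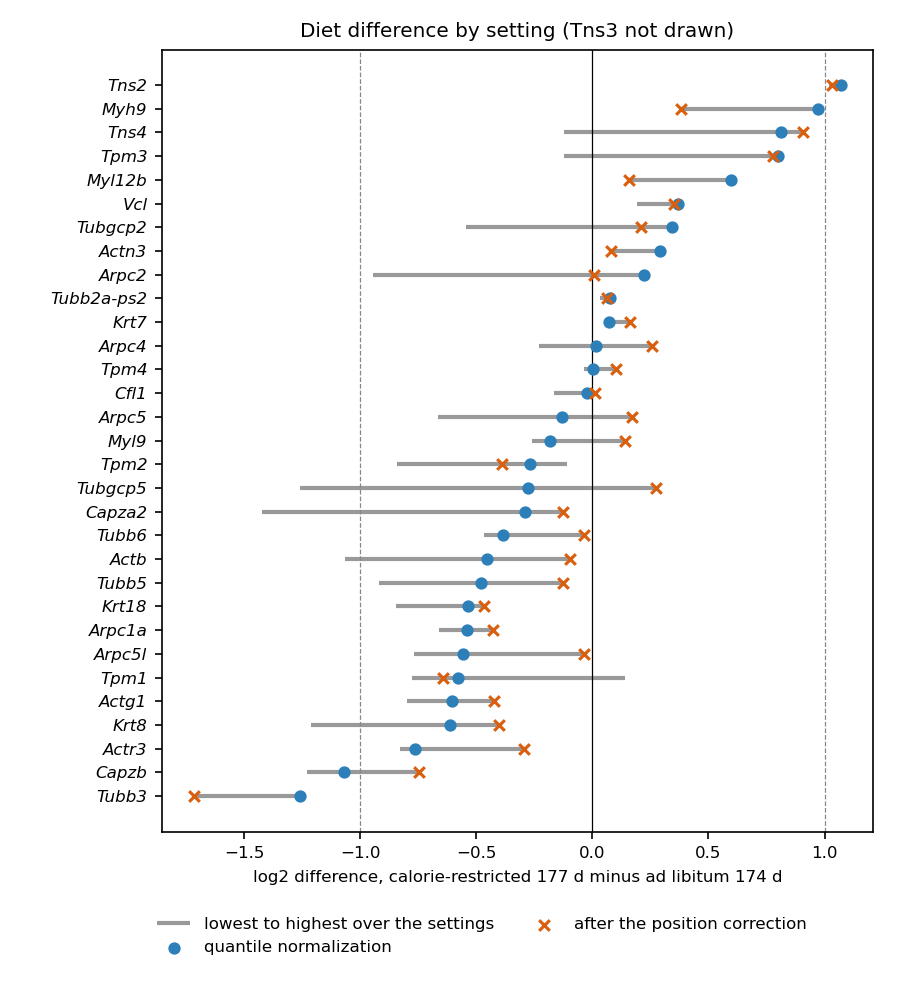
Diet difference of 31 cytoskeletal genes (horizontal axis, log2, calorie-restricted 177 days minus ad libitum 174 days) with quantile normalization (dots), after the position correction (crosses) and over all settings tried except no scaling (bars). Tns2 stays between 1.02 and 1.07 and Tubb3 between -1.72 and -1.26, whereas the bars of Tns4, Tpm1, Tpm3 and Tubgcp5 span 0. Tns2 and Tubb3 have 1 probe each, so settings that choose among probes could not move them. Tns3 is not drawn.

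The 16 genes without a probe above the filter are described by their dim probes alone. In the diet comparison they ran from -1.41 for Tubb2b to 1.08 for Actr8, with a median of -0.20, 10 below 0 and 6 above. In the age comparison they ran from -0.68 for Actr8 to 1.58 for Capg, with a median of 0.13. The 17-day reading of Capg, 58.5, was under the floor of 62.9 and was set to it, so its differences from that mouse rest on a value that was not measured above the floor. The calorie-restricted mouse against the 17-day mouse gave -1.04 for Tubb2b to 0.81 for Capg, with a median of -0.05. Of the dim actin-related genes, Actr8 and Actr6 (0.79 in the diet comparison) are those of chromatin complexes. Over all 48 genes with no brightness filter, 30 were below 0 in the diet comparison (62.5%), against 50.9% of all 7151 genes, and the median was -0.17 against -0.01. In the age comparison 23 of the 48 were below 0, against 50.3%, and between the calorie-restricted and the 17-day mouse 35 were, against 52.9%. At least 2-fold higher with diet were Tns2 and Actr8 (3.06% of all genes) and lower were Capza2, Capzb, Krt8, Tns3, Tubb2b and Tubb3 (4.38%). With age Actn1, Capg, Capza2 and Tns3 were at least 2-fold higher (1.96%) and none was lower (1.26%). Of these, Capg, the dim Capza2 spot and 1 Actn1 spot were at the floor at 17 days, and Tns3 and Capza2 rest on spots that were odd in the 174-day mouse alone.

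Other genes of the cytoskeleton were described from lists of regulators and motors. Of 70 actin regulators, 28 passed the filter, with 12 above 0 and 16 below in the diet comparison and a median of -0.04. None was 2-fold higher, against 2.25% of all genes, and 2 were 2-fold lower, against 4.61%. These 2 were Cnn2, a calponin (-1.74, from 629 in CR, 240.4 at 174 d and 1356 at 17 d), and the actin- and septin-binding Anln (-1.08; -0.46 after the position correction). Cnn2 was at -1.68 after the correction and at -1.29 against the 17-day mouse. Of the small GTPases that steer actin, Rhoa was at -0.13, Rac1 at -0.34 and Cdc42 at 0.84. After the correction Rac1 was at 0.26 and Cdc42 at 0.54. The list's median was then 0.18. Rac1 and Cdc42 had 2 named probes each, and over both probes without the filter they were at 0.14 and 0.06. Neither value on the kept probe was thus shared by the other probe. Of 57 microtubule regulators and motors, 27 passed, with 15 above 0, 12 below and a median of 0.05. None was 2-fold higher, and 2 were at least 2-fold lower, against the same 2.25% and 4.61% of all genes. These were the dynein light intermediate chain Dync1li2 (-1.56; -0.94 after the correction) and Spast, the microtubule-severing spastin (-1.08; -0.99). Dync1li2 had 2 named probes, whose median without the filter was -0.37, so its 2-fold value rests on the kept probe. Of 18 other intermediate filament and lamina genes 4 passed, and Vim, the filament of mesenchymal cells, was at 0.15, Lmna, of the nuclear lamina, at 0.34, Nes, the filament nestin, at -0.45 and Pkp2, a desmosomal plaque gene, at -0.04. In the age comparison none of the listed genes above the filter was 2-fold apart, against 0.724% of all genes higher and 0.44% lower. On dim probes Tmsb10 was at 1.75, Clip1 at -1.90, and Msn and Dynlrb1 also at least 2-fold lower, Msn at -1.01. Without the filter 1.96% of all genes were 2-fold higher and 1.26% lower. The Tmsb10 and Clip1 spots were odd in the 174-day mouse alone, and the Clip1 reading there, 2.89, was under the floor. The age medians above the filter were -0.12, 0.03 and -0.22 for the actin, the microtubule and the intermediate filament list.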

How the data were processed

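Spot intensity was read on 6 arrays, 2 for each of 3 mice. Per the file headers and the values deposited, the intensity is on a linear scale in arbitrary units; what the authors did to make it, including label, scanner and background treatment, is not given in the sources used here, so differences of dim spots may be compressed or inflated. Of the columns, 0 were left without a mouse. Probes were named through GEO's platform annotation, and the 75 cytoskeletal probes matched RefSeq names by gene number with 0 changes of symbol.

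On each array, values under the 5th percentile were set to it. After log2 transformation, the 3 arrays of one kind were quantile-normalized together. Probes above the 50th percentile of mean level entered, and a gene took the median of its entering probes over both array kinds. The threshold was 2-fold. With 1 mouse per group no test was possible. The spread between probes is the pooled SD about the gene mean. Named in full were genes at least 2-fold apart, actins, tubulins and keratins, and the extremes of each role in the diet comparison. Genes from the lists of regulators were named at 2-fold. The other examples, the GC box motif and the promoters shown were chosen after their values or matches were seen. The members, lists and alternatives were chosen with earlier results of these data known. Marker lists of hepatocytes, bile duct, stellate and smooth muscle cells are given as summed intensities over the array median, and the other marker lists by the direction of these sums. Alternatives were median centring, loess or no scaling, other brightness filters and floors, the brightest probe, either array kind alone, leaving out odd spots, the position correction and a 1.5-fold threshold. The steps were tested on simulated data with differences of over 2-fold planted in the calorie-restricted mouse only. Smaller differences and odd spots were not simulated. Computation used pandas 2.3.3 and numpy 2.4.6 under Python 3.11.15, loess came from statsmodels 0.14.6, and plots from matplotlib 3.10.9.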

Additional observations from a re-analysis of the deposited data

How the results depend on the processing

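Each group held 1 mouse, the 174-day arrays were the dimmest, and most genes had a single kept probe. How far each of these limits the results was not tested. In the diet comparison the median over cytoskeletal genes was -0.57 with median centring, -0.39 on array B alone, 0.0082 after the position correction and 2.33 without scaling, which leaves the difference in array brightness in the values. The count of genes at least 2-fold lower was 7 with median centring, 6 without the brightness filter, 1 among the top 25% of probes, 1 on array B alone, 1 without scaling and 6 at a 1.5-fold threshold. Over all genes these counts were 613 of 3869 with median centring, 313 of 7151 without the filter and 658 of 3865 at 1.5-fold. They were 56 of 1840 among the top 25%, 94 of 2106 on array B and 6 of 3869 without scaling. The top 25% and array B each held 14 cytoskeletal genes. The count at least 2-fold higher was 2 without the filter, 0 among the top 25% of probes, 0 on array B alone, 31 without scaling, where 3827 of all 3869 genes were higher, and 5 at 1.5-fold, where 445 of 3865 were. Over all genes it was 219 of 7151 without the filter, 28 of 1840 among the top 25% and 50 of 2106 on array B. Without scaling Capzb was at 1.22 and Tubb3 at 1.85. In the age comparison the median was 0.20 with median centring, where that of all genes was 0.21, and -2.81 without scaling. The genes at least 2-fold higher numbered 4 without the filter and 0 among the top 25% of probes, on array B alone and without spots apart in the 174-day mouse only, since Tns3 then drops out. Over all genes these counts were 140 of 7151, 5 of 1840, 9 of 2106 and 12 of 3850. The genes at least 2-fold lower numbered 31 without scaling, where 3857 of all 3869 genes were lower, and 2 at 1.5-fold, where 189 of 3865 were. For the calorie-restricted against the 17-day mouse the median was -0.32 with median centring, -0.37 without scaling and -0.041 after the position correction. There 2 genes were at least 2-fold lower without scaling (120 of all 3869), 1 without the filter (54 of 7151), 1 after the position correction (36 of 3869) and 3 at 1.5-fold (383 of 3865). At 1.5-fold 2 were higher, against 212 of all 3865. Over all settings except no scaling, 21 of the 32 genes kept their sign in the diet comparison, 16 in the age comparison and 23 in the third. Of the 32 genes, 26 had 1 kept probe, so settings such as the brightest probe could not change their values. No share over all genes is given beside these counts. Beyond the settings with values above, loess, the brightest probe, a higher floor (25th percentile), array A alone, and leaving out spots of exactly 10 or spots apart in the 17-day or the 177-day mouse moved none of the medians by over 0.1 log2 and none of the counts by over 1.5 times. The cause of these shifts was not tested. No paired analysis was possible because each group held 1 mouse.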
